A study of Homo sapiens with 4 samples.

Results

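Transcripts of 10 cytokine receptor genes were followed in 4 RNA sequencing libraries: IL7R, IL6R, IL6ST, IL1R1, OSMR, LIFR, IL4R, IL13RA1, IFNGR1 and IFNAR1. They were found by Entrez Gene identifier, and all 10 had a row in every table, out of 17010 genes listed for vector and JFK and 16856 used for the siRNA pair. IL7R was chosen by its higher count under ING5 siRNA than under control siRNA, so that difference is a description and supports nothing. All libraries came from cells labelled HepG2, an established human line from a liver tumour. The groups, with 1 library each, were cells transfected with empty vector, cells transfected with FLAG-JFK (a tagged plasmid for JFK, which is the F-box protein FBXO42), cells treated with a control siRNA and cells treated with an siRNA against ING5, a reader of methylated histone tails. No source used here gives the promoter of the plasmid or the time after transfection. With 1 library per group there is no replicate check and no test. Each fold is therefore given with its exact 95% Clopper-Pearson interval, which covers counting error only.

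Cytokine receptors at the cell surface bind secreted ligands, pair into complexes and start signalling inside the cell. Most of those followed here lack a kinase of their own and use Janus kinases, which phosphorylate STAT transcription factors. The interleukin-1 receptor instead recruits the adaptor MYD88 and kinases of the IRAK family. In liver, receptors that share the IL6ST chain drive the acute phase response. IL7R is best known from lymphocytes, where it pairs with the common gamma chain IL2RG to bind interleukin-7, and with CRLF2 to bind TSLP.

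The start regions of a pair of members are shown because IL7R had the widest range of levels between libraries and OSMR the highest level in every library. Both genes lie on chromosome 5. The sequences are the 300 bases from 250 before to 50 after the RefSeq gene start (build GRCh38.p14), at chr5:35856641-35856940 on the plus strand for IL7R and chr5:38845762-38846061 on the plus strand for OSMR. Capitals mark matches to the motifs searched.
IL7R: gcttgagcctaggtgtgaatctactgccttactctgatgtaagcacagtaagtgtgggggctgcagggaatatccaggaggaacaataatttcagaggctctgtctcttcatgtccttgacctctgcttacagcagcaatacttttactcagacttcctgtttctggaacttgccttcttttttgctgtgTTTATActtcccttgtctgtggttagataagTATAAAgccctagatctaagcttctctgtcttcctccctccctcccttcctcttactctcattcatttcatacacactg
OSMR: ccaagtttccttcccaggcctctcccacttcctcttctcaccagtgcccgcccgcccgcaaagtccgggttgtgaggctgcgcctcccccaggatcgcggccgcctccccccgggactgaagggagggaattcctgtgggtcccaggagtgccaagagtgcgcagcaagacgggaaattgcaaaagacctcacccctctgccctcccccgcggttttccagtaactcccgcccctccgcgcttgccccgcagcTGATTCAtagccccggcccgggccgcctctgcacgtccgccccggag
In the IL7R window the capitals are TATAAA, 29 bases before the start, and its reverse complement 60 bases before it. In the OSMR window they are 1 match to TGANTCA, the AP-1 motif, 4 bases into the gene. Motifs were searched on both strands, and no matches overlapped in either window. TATAAA was present in 11.5% of 35116 windows of this length and TGANTCA in 7.71%. The STAT motif TTCNNNGAA (7.66% of windows), the core of the interferon-stimulated response element (3.57%) and the kB motif of NF-kB (11.3%) had no match in these windows of IL7R and OSMR. The 17 windows of the 10 members include alternative starts. Among them, TTCNNNGAA occurred for IL1R1 and LIFR and the kB motif for IL6ST, IL4R and IFNGR1. TATAAA also occurred for IL1R1 and LIFR, and TGANTCA also for IL6R. G and C made up 44.3% of the IL7R window and 67.7% of the OSMR window, against a median of 58.7% over all windows. These matches describe letters, not bound sites.

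Totals over the genes used were 7179580 (vector), 7237320 (JFK), 9196980 (control siRNA) and 9030080 (ING5 siRNA) counts. The targeted transcripts check the labels: ING5 had 181 counts in vector, 145 in JFK, 144 in control siRNA and 81 in ING5 siRNA. FBXO42 had 116, 115, 115 and 97, so it was not higher in JFK, which is called the library labelled JFK from here on. Of 15 hepatocyte and liver tumour markers, 5 had at least 20 counts in each library; the transcripts of albumin (ALB), transthyretin (TTR) and transferrin (TF) were in no table and are not analysed here. Other secreted liver proteins were at 0 to 2 counts where listed: AFP, alpha-fetoprotein, had 1 and 0 in the siRNA pair, APOA1 had 2 and 1 and APOB 0 and 1 in the vector pair, and AHSG had 0 to 2 in all 4. These markers were thus at or near 0, while H19, CPS1, VTN, HNF4A and RBP4 were the 5 above; the identity of the line was not tested further. The vector pair and the siRNA pair were deposited in different units and with different gene lengths, so levels set across the pairs are descriptive.

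IL7R (Entrez Gene 3575) had 926 counts in vector, 1098 in the library labelled JFK, 99 in control siRNA and 598 in ING5 siRNA. Scaled to equal library totals, as CPM, these are 129, 152, 10.8 and 66.2. The control siRNA library was thus the low one, and the ING5 siRNA library lay between it and the vector pair. TMM scaling adjusts for differences in total and composition between libraries, taking most genes to be level. After TMM scaling the ING5 siRNA library stood 6.08-fold above control siRNA (interval 4.93 to 7.63), the value that chose this gene. It ranked 3 from the top of 11634 genes measured, meaning those whose normalised counts average 20 or more. In the vector pair, which the choice did not use, the library labelled JFK lay 1.21-fold above vector (log2 fold 0.27, interval 0.14 to 0.40), and 22.7% of 12107 measured genes were as far from 0. The control siRNA library lay below vector by a log2 fold of −3.42 (interval −3.74 to −3.12). This comparison shares its control siRNA library with the ING5 siRNA comparison. In RNA from whole cultures, fewer cells with a transcript and less transcript per cell cannot be told apart.

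**Figure D1:**
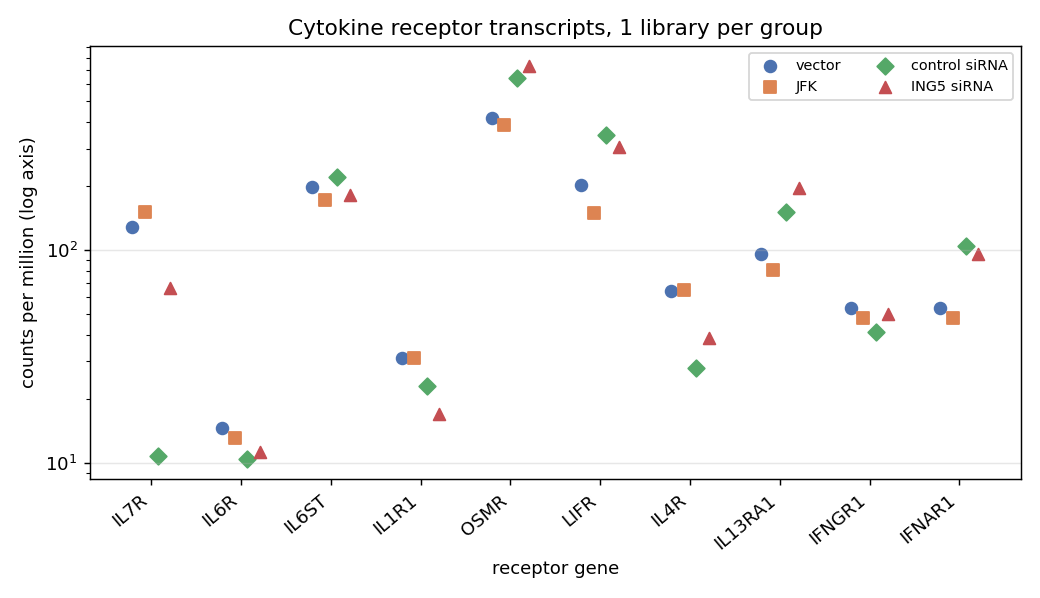
CPM, counts scaled to equal library totals (log axis), of the 10 receptor genes, 1 point per library; JFK is the library labelled JFK. IL7R runs from 10.8 in control siRNA to 152 in the library labelled JFK, while OSMR is highest in all 4 libraries.

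The other chains of the interleukin-7 and TSLP receptors were also read. IL2RG, the common gamma chain, had 43 counts in vector, 43 in the library labelled JFK, 51 in control siRNA and 41 in ING5 siRNA. It was low in all 4 libraries, and its log2 fold under ING5 siRNA was −0.30 (interval −0.93 to 0.32). CRLF2, the TSLP receptor chain, had 119 and 127 counts in the vector pair but 4 and 3 in the siRNA pair. It lies in a region shared by the X and Y chromosomes, so its reads may be handled differently by different counting methods, and the value is uncertain. TSLP itself had 3 and 4 counts in the vector pair and 12 and 9 in the siRNA pair, and IL7 was in no table and is not analysed here.

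IL4R, the ligand-binding chain for interleukin-4, had 464 counts in vector, 468 in the library labelled JFK, 258 in control siRNA and 349 in ING5 siRNA, or 64.6, 64.7, 28.1 and 38.6 CPM. Like IL7R it was lowest in control siRNA, but over a narrower range. The log2 fold was 0.45 under ING5 siRNA (interval 0.22 to 0.69), 0.04 in the library labelled JFK (−0.15 to 0.23) and −1.04 for control siRNA against vector (−1.27 to −0.82). IL13RA1, which pairs with IL4R to bind interleukin-4 and interleukin-13, had 686, 582, 1387 and 1760 counts in the same order of libraries (95.6, 80.4, 151 and 195 CPM). Both siRNA libraries were above both libraries of the vector pair. Its log2 fold was 0.36 under ING5 siRNA (0.26 to 0.46) and −0.21 in the library labelled JFK, whose interval also left out 0. IL13RA2, the decoy for interleukin-13, was in no table and is not analysed here.

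Receptors built on IL6ST, the shared signalling chain called gp130, include the highest member of all, OSMR. OSMR, which joins IL6ST to bind oncostatin M, had 3011 counts in vector, 2791 in the library labelled JFK, 5895 in control siRNA and 6646 in ING5 siRNA, or 419, 386, 641 and 736 CPM. The siRNA pair was higher than the vector pair, and differences within pairs were small: the log2 fold was 0.19 under ING5 siRNA (interval 0.14 to 0.24) and −0.09 in the library labelled JFK (−0.16 to −0.01). LIFR, the leukaemia inhibitory factor chain and the direct chromosomal neighbour of OSMR among protein-coding genes, had 1452, 1076, 3193 and 2765 counts (202, 149, 347 and 306 CPM). It had the lowest fold of the 10 in the library labelled JFK, with a log2 fold of −0.41 (−0.52 to −0.29), and 10.1% of measured genes were as far from 0. Under ING5 siRNA it stood at −0.19 (−0.27 to −0.12), on the other side of 0 from OSMR.

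IL6ST had 1422, 1240, 2022 and 1635 counts, or 198, 171, 220 and 181 CPM. The treated library was the lower one in both pairs, with log2 folds of −0.17 (interval −0.28 to −0.06) in the library labelled JFK and −0.29 (−0.39 to −0.20) under ING5 siRNA. IL6R, the interleukin-6-binding chain, had 105, 94.4, 96 and 102 counts, or 14.6, 13.0, 10.4 and 11.3 CPM. It was the scarcest member by CPM in all 4 libraries, close to IL7R in control siRNA. Neither within-pair fold was resolved from 0 at this depth, at −0.12 (−0.55 to 0.28) and 0.10 (−0.31 to 0.52). Of the other IL6ST partners, IL27RA, for interleukin-27, had 593, 641, 180 and 226 counts, and IL11RA had 9 to 19. IL31RA, which pairs with OSMR and adjoins IL6ST on chromosome 5, had 25.5 and 26.4 expected counts in the vector pair and 1 and 0 counts in the siRNA pair.

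IL1R1, the signalling receptor for interleukin-1, had 225 counts in vector, 225 in the library labelled JFK, 212 in control siRNA and 153 in ING5 siRNA. The ING5 siRNA library was the low one, with a log2 fold of −0.45 (interval −0.76 to −0.15), while the library labelled JFK stood at 0.03. IL1RAP, the accessory chain that IL1R1 needs to signal, had 289, 234, 596 and 898 counts. It differed the other way under ING5 siRNA, at 0.61 (0.46 to 0.76). Of 5 partner chains measured there it was the 1 at least 1.5-fold apart, beside 8.41% of all measured genes. The decoy receptor gene IL1R2 had at most 2 counts in any library.

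IFNGR1, the ligand-binding chain for interferon-gamma, had 385 counts in vector, 346 in the library labelled JFK, 378 in control siRNA and 455 in ING5 siRNA. Its levels lay within a narrow band, from 41.1 to 53.6 CPM, and its log2 fold was 0.28 under ING5 siRNA (interval 0.08 to 0.48). Its partner IFNGR2 had 280, 285, 338 and 337 counts, with log2 folds of 0.05 (the library labelled JFK) and 0.01 (ING5 siRNA). IFNAR1, of the type I interferon receptor, had 382, 347, 967 and 863 counts (53.3, 48.0, 105 and 95.6 CPM). Both siRNA libraries were above the vector pair, and the within-pair folds were −0.11 (−0.33 to 0.10) and −0.15 (−0.28 to −0.01). IFNAR2, its partner chain, had 250, 198, 257 and 330 counts, lower in the library labelled JFK (−0.31, interval −0.59 to −0.04) and higher under ING5 siRNA (0.38, interval 0.14 to 0.62). IFNAR2 overlaps a readthrough locus with IL10RB, so its count is uncertain.

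The 10 members were then counted against all measured genes in each comparison. In the library labelled JFK, 0 of 10 members were at least 1.5-fold from vector, as were 3.57% of all measured genes. The interval lay wholly above 0 for IL7R alone, where 14.3% of genes did so, and wholly below 0 for IL6ST, OSMR, LIFR and IL13RA1, where 11.2% did. The median of the members was −0.12, beside 0.00 over all genes. Under ING5 siRNA, 1 of 10 was at least 1.5-fold apart, the chosen gene IL7R, beside 8.41% of measured genes, and nothing is read from that count. Intervals lay wholly above 0 for 5 members (IL7R, IL4R, IL13RA1, IFNGR1 and OSMR; 18.3% of genes) and wholly below 0 for 4 (IL6ST, IL1R1, LIFR and IFNAR1; 20.6%). The interval narrows as the count grows, so these shares compare genes of unequal precision. The median was 0.15, beside −0.01 over all genes.

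Between control siRNA and vector 6 of 10 members were at least 1.5-fold apart, near the 58.0% of all 12012 genes measured there. TMM takes most genes to be level, so with this share apart the scaling is less certain here. IFNAR1, LIFR, IL13RA1 and OSMR stood higher in control siRNA (29.8% of genes did so), with log2 folds of 1.14, 0.94, 0.82 and 0.77. IL7R and IL4R stood lower (28.1% of genes). IL7R was 270 from the bottom in this comparison, and 2.30% of genes were as far from 0. The choice of IL7R used the same control siRNA count, so nothing is read from this rank.

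**Figure D2:**
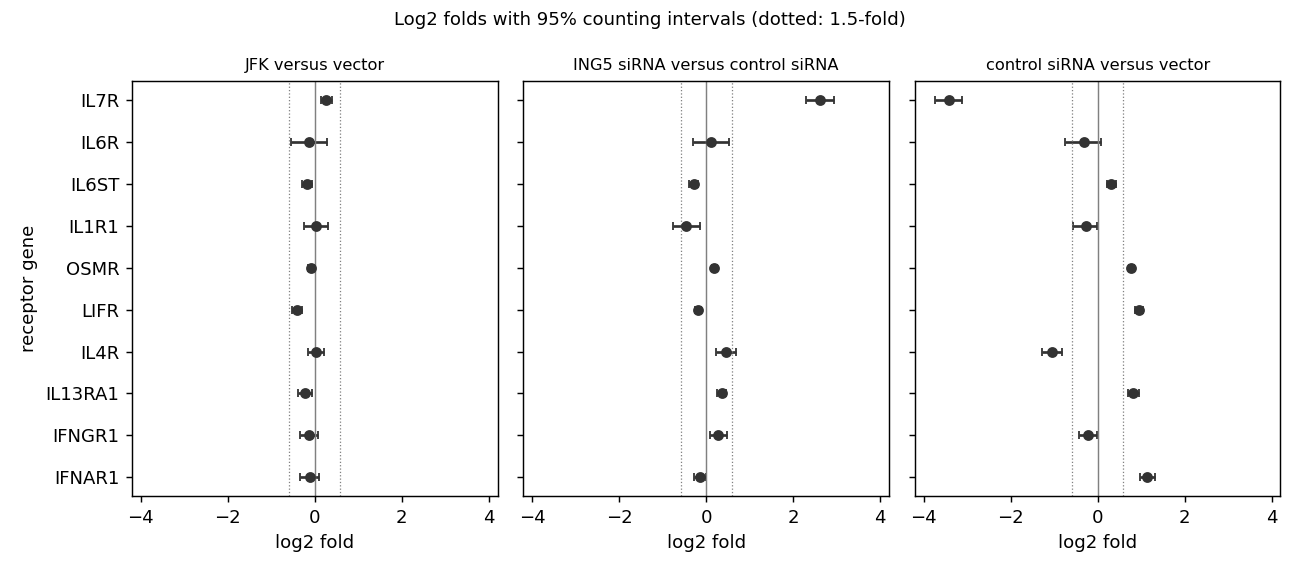
Log2 fold of each receptor gene (points) with its 95% counting interval (bars) in 3 comparisons of single libraries; dotted lines mark 1.5-fold, and JFK is the library labelled JFK. In the first panel no point passes the dotted lines, in the middle panel IL7R alone does, at 6.08-fold, and in the right panel 6 points do.

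Levels can be compared between genes only per gene length, by the deposited FPKM (vector pair) or RPKM (siRNA pair). OSMR led in every library, at 88.2 FPKM in vector, 81.1 FPKM in the library labelled JFK, 115 RPKM in control siRNA and 131 RPKM in ING5 siRNA. IL6R was last in every library, at 3.50 and 3.13 FPKM and 1.76 and 1.89 RPKM. IL7R moved through the order: it was rank 2 in both libraries of the vector pair (27.7 and 32.4 FPKM), rank 9 in control siRNA (2.33 RPKM) and rank 7 in ING5 siRNA (14.2 RPKM). In vector the ranks from IL7R down to IL4R, 17.6 FPKM, form a run in which the counting intervals of each pair of neighbours overlap. In control siRNA overlaps were seen for IFNGR1 with IFNAR1 and for IL7R with IL6R, and in ING5 siRNA for IFNAR1 with IL7R. In the library labelled JFK IL7R stood clear of IFNGR1 below it, and the neighbours from IFNGR1 down to IL4R overlapped, as did IFNAR1 with IL1R1.

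**Figure D3:**
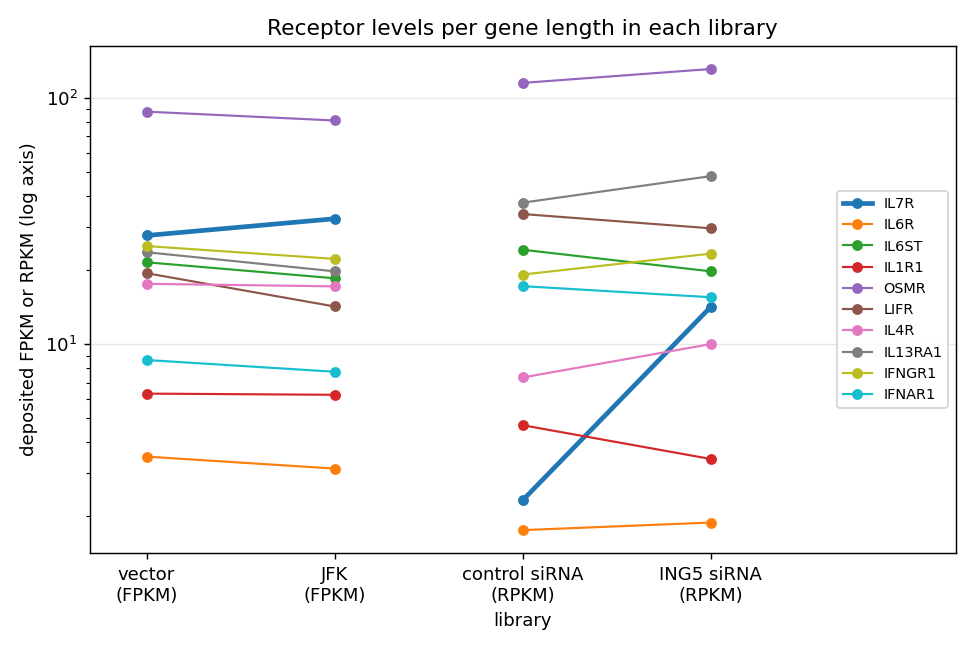
Deposited FPKM (vector and the library labelled JFK) and RPKM (siRNA libraries) of the receptor genes on a log axis, 1 point per library, with lines joining the libraries of a pair. OSMR is on top throughout, and IL7R (thick line) is second in the vector pair and ninth in control siRNA.

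The ratio of chains within a library shows which one is in shorter supply as RNA. IL6R was at 0.162 and 0.169 of IL6ST in vector and the library labelled JFK, and at 0.0727 and 0.0955 in control siRNA and ING5 siRNA. The deposited length of IL6R was 4114 bases in the first pair but 5928 in the siRNA tables, so part of the gap between pairs lies in the length used. OSMR exceeded IL6ST 4.09-fold in vector, 4.37-fold in the library labelled JFK, 4.76-fold in control siRNA and 6.64-fold in ING5 siRNA. OSMR was given 4683 bases in the first pair and 5556 in the siRNA pair. With the latter lengths the ratios of the first pair became 3.46 and 3.67. IL1R1 was at 0.521, 0.618, 0.360 and 0.172 of IL1RAP in the same order of libraries. IL1RAP was given 3166 bases in the first pair and 4965 in the siRNA tables, and with the latter lengths the first pair of ratios became 0.786 and 0.972. IL4R lay further below IL13RA1 in the siRNA pair, at 0.195 and 0.208 of it, than in the vector pair, at 0.744 and 0.869. IFNAR1 was below IFNAR2 in the vector pair (0.562 and 0.702) and above it in the siRNA pair (1.79 and 1.24). IFNAR2 was given 2461 bases in the first pair and 2898 in the siRNA pair. From counts and the latter lengths, the ratios of the first pair became 0.728 and 0.834. In vector the IFNAR2 count was 0.916 of that implied by its FPKM, so 0.562 is uncertain. LIFR was likewise below IL6ST in the vector pair (0.903 and 0.768) and above it in the siRNA pair (1.40 in control siRNA, higher in ING5 siRNA). IFNGR1 stayed above IFNGR2, at 1.17 to 1.44 of it. The ING5 siRNA library had the lowest IL1R1 to IL1RAP ratio and the highest OSMR to IL6ST ratio of the 4.

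Genes with a pattern like that of IL7R were sought by the distance between TMM-scaled log2 levels over the 4 libraries, after centring each gene on its mean. Among 12039 genes the nearest was IL6, for the cytokine interleukin-6, with 110 counts in vector, 174 in the library labelled JFK, 12 in control siRNA and 58 in ING5 siRNA (distance 0.50 log2 units). IL6 is also a ligand in the receptor group above. Next came NUDT8 (0.73), EPCIP (0.73), GRIN2D, a glutamate receptor subunit (0.78), OLR1, the oxidised LDL receptor (0.81), and MT1X, a metallothionein (0.86). Of these OLR1 was the most abundant, with 1699, 1714, 272 and 764 counts, while NUDT8 had 4 and GRIN2D 6 counts in control siRNA. All 6 were lowest in control siRNA, which the measure of likeness selects for. The distances rest on 4 libraries from separately made tables.

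**Figure D4:**
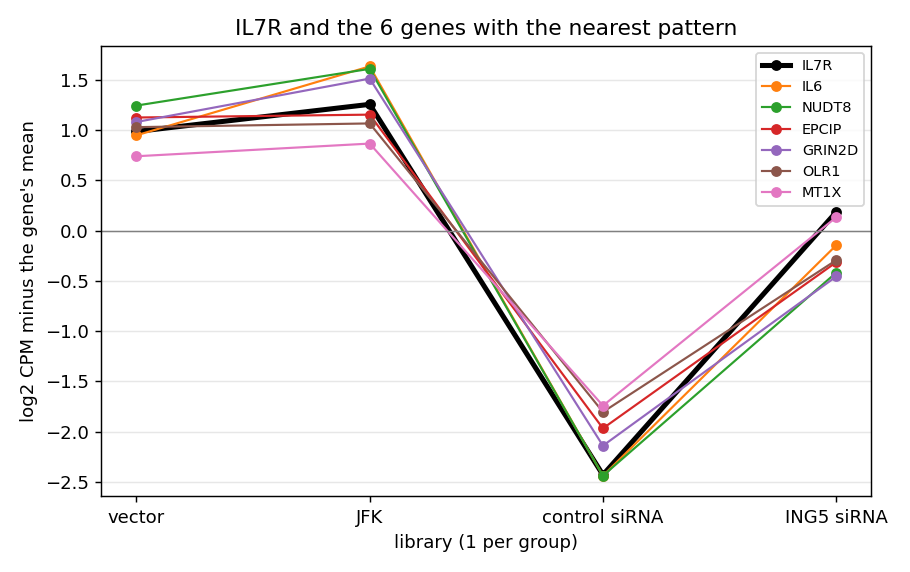
TMM-scaled log2 CPM of IL7R (black) and the 6 genes nearest to it, each minus its own mean over the 4 libraries; lines only join the values of a gene. All 7 lie lowest in control siRNA, and the vector pair lies above both siRNA libraries.

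The rest of the pathway was read from lists. Ligands had 4 of 19 genes measured in each pair. Under ING5 siRNA the log2 fold of LIF, the ligand of LIFR, was 0.80 (interval 0.48 to 1.14), with 218 counts against 126. IL6 stood at 2.24 (58 counts against 12) and IL1A at 2.48 (41 counts against 7). IL6 and IL1A passed the count minimum only through the ING5 siRNA library, so nothing is read from how many ligands stood higher. CLCF1, a ligand of the CNTF receptor, stood at −0.24 (−0.98 to 0.49). In the library labelled JFK IL6 was at 0.68, LIF at 0.40 (0.09 to 0.72) and CLCF1 at 0.19. IL6 alone of the 4 ligands measured there was at least 1.5-fold apart, beside 3.57% of all measured genes. OSM, CNTF, IL13 and IFNG, which code for further ligands, were in no table and are not analysed here.

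Janus kinases and STAT factors had 9 of 11 genes measured in the siRNA pair (median −0.10). Of these 0 were at least 1.5-fold apart, beside 8.41% of all measured genes. The highest were JAK2 at 0.44 (interval 0.09 to 0.78) and STAT3, the main effector of IL6ST, at 0.30 (0.23 to 0.37). The lowest were STAT6, the effector of IL4R, at −0.27 (−0.40 to −0.13), TYK2 at −0.20 and STAT5A at −0.20. In the vector pair 0 of 10 measured were 1.5-fold apart (median 0.03), beside 3.57% of all measured genes. In the library labelled JFK, JAK2 stood at −0.54 (−1.08 to −0.03) and STAT2 at −0.46. At the other end lay STAT5B at 0.12, STAT6 at 0.08 and STAT5A at 0.07. STAT5A and STAT5B, through which IL7R signals in lymphocytes, had 322 to 421 and 781 to 1542 counts.

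Inhibitors of the pathway had 13 of 16 genes measured in the siRNA pair (median 0.04) and 14 in the vector pair (median 0.01). SOCS3, the feedback inhibitor of IL6ST, had 199 counts under ING5 siRNA against 144 (0.48, interval 0.17 to 0.80) and 283 against 287 in the library labelled JFK (0.00). SOCS7 at 0.46 and PIAS3 at 0.31 followed under ING5 siRNA, while USP18, an inhibitor of type I interferon signalling, was lowest at −0.39 (−0.77 to −0.03). USP18 was also lowest in the library labelled JFK, with 377 counts against 613 (−0.68, interval −0.87 to −0.49), the 1 inhibitor at least 1.5-fold lower there (2.07% of all genes). PIAS4 was highest there, at 0.55 (0.18 to 0.93). CISH, a STAT5 target that curbs cytokine signalling, had 7 to 11 counts and was not measured.

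Adaptors of the interleukin-1 receptor had 11 of 12 genes measured in each pair. Of these 0 were at least 1.5-fold apart under ING5 siRNA, beside 8.41% of all measured genes. The library labelled JFK also had 0, beside 3.57%. IRAK1, a kinase of this pathway, had 2786 counts in the library labelled JFK against 2388 (0.25, interval 0.17 to 0.33) and 1020 under ING5 siRNA against 1395 (−0.44, −0.55 to −0.32). TRAF6 was lowest under ING5 siRNA at −0.47 (−0.80 to −0.14), and MAP3K7 was lowest in the library labelled JFK at −0.54 (−0.85 to −0.25). Of the 4 shedding genes ADAM10, a protease that releases receptor ectodomains, had 856 counts under ING5 siRNA against 1274 (−0.56, interval −0.68 to −0.43), while ADAM17 stood at 0.28 (0.08 to 0.49). Acute phase genes, the classical hepatic targets of interleukin-6, had 3 of 17 measured in the siRNA pair. These were LRG1 at 0.45 (−0.12 to 1.04), C3 at 0.27 (0.21 to 0.33) and CP, ceruloplasmin, at 0.24 (0.13 to 0.36). Their median of 0.27 became 0.45 over 9 genes without the count minimum. In the vector pair 6 acute phase genes were measured, 3 above and 3 below 0, with a median of 0.03. Of these 1 was at least 1.5-fold apart, beside 3.57% of all measured genes. SAA1, serum amyloid A, had 65.9 and 92.5 expected counts in the vector pair and 2 (control siRNA) and 21 (ING5 siRNA) counts in the siRNA pair; it has a close paralogue, SAA2, so its count is uncertain.

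Other cytokine receptors had 12 of 34 genes measured in the siRNA pair and 16 in the vector pair (medians 0.05 and −0.04). Under ING5 siRNA 1 of the 12 was at least 1.5-fold apart, near the 8.41% of all measured genes: IL17RD, with 103 counts against 54 (0.94, interval 0.46 to 1.45), followed by EPOR, the erythropoietin receptor, at 0.51 (−0.21 to 1.25) and LEPR, the leptin receptor, at 0.46 (0.24 to 0.67). IL20RB was lowest at −0.50 (−0.62 to −0.38), with 997 counts against 1424. In the library labelled JFK 1 of the 16 was at least 1.5-fold apart, beside 3.57% of all genes: GHR, the growth hormone receptor, with 18.1 counts against 30.2 and an interval of −1.64 to 0.18 that held 0. Partner chains had 5 of 11 measured under ING5 siRNA, with a median of 0.34 that became 0.01 over 9 genes without the count minimum, and 7 in the vector pair (median 0.05).

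**Figure D5:**
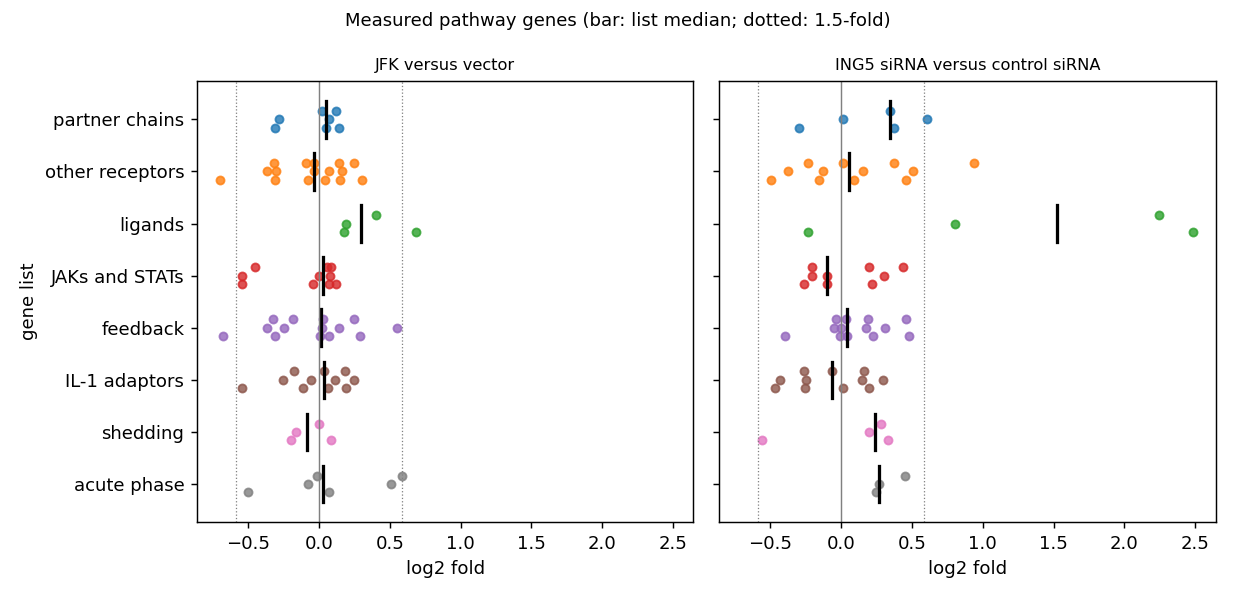
Log2 fold of each measured gene of 8 pathway lists (points) in the library labelled JFK against vector (left) and under ING5 siRNA against control siRNA (right); black bars are list medians, dotted lines mark 1.5-fold, and vertical scatter is for legibility. The points farthest right are the ligands IL1A and IL6 under ING5 siRNA, at 2.48 and 2.24, which passed the count minimum through that library only.

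Because IL7R marks lymphocytes, markers of other cells were read beside it. Of 20 leukocyte markers 2 had at least 20 counts in each library of the vector pair and 1 in each siRNA library. Their summed level was 25.7 and 20.7 CPM in the vector pair and 9.13 and 9.08 CPM in control siRNA and ING5 siRNA, so it was level between the siRNA libraries. Most of it came from LYZ, lysozyme, with 115, 72.2, 13 and 13 counts, and from IL2RG. PTPRC, the pan-leukocyte antigen CD45, had 8, 7, 1 and 1 counts, and the T cell markers CD3D, CD3E and CD2 were in no table and are not analysed here. Endothelial markers summed to 146, 164, 26.6 and 12.5 CPM, mostly from CDH5, VE-cadherin, with 995, 1132, 224 and 87 counts. CDH5 was lower under ING5 siRNA than control siRNA, the opposite of IL7R. Fibroblast markers summed to 76.3 to 96.1 CPM. Whether a share of other cells contributes to the IL7R values was not tested.

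Genes next to IL7R on chromosome 5 were read as a further reference. Of its 5 protein-coding neighbours on each side in RefSeq order, 6 were measured in both pairs: BRIX1, DNAJC21, PRLR, SPEF2, LMBRD2 and SKP2. All 6 stood at least 1.5-fold higher in control siRNA than in vector, as did 29.8% of all genes measured there. Their log2 folds ran from 0.65 (SKP2) to 1.73 (PRLR), where IL7R stood at −3.42. The PRLR count in vector, 26, was 1.87 times that implied by its FPKM, so its value is uncertain. Under ING5 siRNA the log2 folds of the 6 neighbours ran from −0.27 (SKP2) to 0.45 (SPEF2). CAPSL, UGT3A1 and UGT3A2, the 3 nearest on 1 side, had 0 to 10 counts in all libraries and were not measured. Of these, UGT3A1 had 8 and 10 counts in the vector pair and 1 and 2 in the siRNA pair. No reason for the low IL7R value in control siRNA was tested.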

How the data were processed

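Gene tables of 4 libraries were used, 1 per group, grouped by the label for transfection. The builds GRCh37 and hg19 and the tools FastQC, fastp, STAR and DESeq2 are named in the submitters' processing notes; no source used here gives roles, versions or the gene counter. Per the file headers, values of the vector pair are expected counts, often with decimals, beside FPKM. Those of the siRNA pair are whole counts beside RPKM, again per the file headers. Identifiers were matched to RefSeq symbols (16900 of 17010 and 16767 of 16856). NADK2 and SMG1P3, listed more than once in the siRNA tables, were left out there. Member counts differed from those implied by FPKM or RPKM and length by at most 2.10%.

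Counts were scaled with TMM (trims 0.3 and 0.05) within each comparison, 0.5 was added and log2 ratios were taken, using scipy 1.17.1, pandas 2.3.3 and numpy 2.4.6 under Python 3.11.15; matplotlib 3.10.9 drew the figures. Expected counts were rounded for intervals, which cover counting error alone: without molecular identifiers, reads cannot be taken as independent molecules. Genes whose normalised counts averaged 20 or more were called measured. With 1 library per group no test was run. The scripts were tested on simulated data. A count of 0 allows up to 3 counts, or 0.326 to 0.418 CPM. The genes named are the members, the targeted genes, up to the 3 highest and 3 lowest of each list, the 6 genes nearest to IL7R and its 5 neighbours on each side; partner chains and scarce or unlisted genes described beside a member were chosen after their values were seen. The members, lists and motifs were chosen with earlier results of these data known. Alternatives were median-of-ratios, total-count and 4-library TMM scaling, 5 added in place of 0.5, FPKM or RPKM with 0.1 added, no count minimum, a minimum of 100, and leaving out genes whose count and FPKM or RPKM disagree by over 5% or 0.1%. Protein sequences were not used here. Some genes of the lists are not reported here by name.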

Additional observations from a re-analysis of the deposited data

How the results depend on the processing

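The count of members at least 1.5-fold apart was 0 in the library labelled JFK, 1 under ING5 siRNA and 6 between control siRNA and vector under all 8 alternatives run. At a minimum of 100 IL6R was no longer measured within either pair, so those counts are over 9 members. IL7R ran from 0.23 to 0.27 in the library labelled JFK, from 2.55 to 2.61 under ING5 siRNA and from −3.58 to −3.35 between the controls. Between the controls, FPKM and RPKM, which change both the scaling and the gene lengths, moved IL6R to −0.95 and OSMR to 0.39; total-count scaling alone gave −0.49 and 0.60. Total-count scaling shifted the median of all genes there from 0.05 to −0.12, and FPKM and RPKM to −0.15; the median of the members followed, from 0.04 to −0.13 and −0.11. In the library labelled JFK, IL4R and IL1R1 lay on either side of 0 depending on the setting (−0.03 to 0.04 and −0.02 to 0.03). The number of all genes at least 1.5-fold apart depends on the count minimum: 432 in the library labelled JFK became 3417 with none and 82 at 100, and 978 under ING5 siRNA became 4376 and 461. List medians also depend on that minimum: with none, the ligand median went from 1.52 to 0.95 under ING5 siRNA and from 0.30 to 0.02 in the library labelled JFK, and that of partner chains under ING5 siRNA from 0.34 to 0.01. With the siRNA tables' gene lengths, an alternative chosen after seeing the data, 9 of 18 chain ratios of the vector pair left their counting interval. No paired analysis was possible because each group holds 1 library. Depth limits IL6R most among the members, at 94.4 to 105 counts.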
